A study of Rattus norvegicus with 105 samples.

Results

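The 40 genes described here are the rat proteasome genes whose symbols run Psma, Psmb, Psmc, Psmd, Psme or Psmg followed by a number, without the 3 inducible catalytic subunits Psmb8, Psmb9 and Psmb10. They were picked by symbol alone from the 14852 genes that the array annotation names, and each of the 40 sat on 1 probe set. The symbol rule takes in more than the constitutive subunits of the particle. It also takes the core activators Psme1, Psme2, Psme3 and Psme4, the assembly chaperones Psmd5, Psmd9, Psmd10, Psmg2 and Psmg4, and Psma8, an alpha subunit of male germ cells. Psmd11, Psmg1, Psmg3 and Psmb11 were not among the named probe sets.

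The proteasome is the protease that degrades proteins tagged with ubiquitin, and in skeletal muscle it clears damaged proteins and carries much of the protein loss of wasting. Its 20S core is a barrel of outer alpha rings and inner beta rings, with the catalytic sites in the beta subunits encoded by Psmb5, Psmb6 and Psmb7. The 19S cap has a base of ATPases (Psmc genes), which unfold the substrate, and a lid (most Psmd genes), which holds the deubiquitinase Psmd14. Interferon replaces the catalytic subunits with Psmb8, Psmb9 and Psmb10, forming the immunoproteasome, and loss of proteasome activity is known to raise transcription of subunit genes through the factor Nfe2l1.

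RNA came from the gastrocnemius of male Sprague-Dawley rats with 4 implanted pellets of a metal, 2 per limb, sampled after 1, 3, 6 or 12 months. The 9 metals were aluminum, cobalt, copper, depleted uranium, iron, lead, nickel and tungsten, with tantalum, an inert metal, as the surgical sham, so that every rat here had surgery and a foreign body. Per the labels, rats were about 30 days old at purchase and were kept for at least 2 weeks before surgery, and every metal and month had its own cohort of 8 rats. Month, age and cohort therefore cannot be told apart. The table holds 35 groups of 3 Clariom S Rat arrays, each hybridised with RNA pooled from 2 to 3 animals, and nickel at 12 months is not analysed here. The labels do not say whether the pools of a group shared animals, so p-values measure the spread between these arrays.

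Values are log2 intensities after robust multi-array averaging (RMA), on which 1 unit is a doubling, and levels of different probe sets are not on a common scale. Differences were tested with limma over all 22954 probe sets, and a gene is called changed below an adjusted p of 0.05. Each array had 88.5 to 94.9% of probe sets above the median of the control probe sets, and no array's correlation with the others averaged under 0.97. Muscle markers were present in every group: the summed level of 10 fibre genes, which include Acta1 and Ckm, lay between 16.59 and 16.76 in the tantalum, cobalt, copper and nickel arrays of months 1 and 3. At 6 months the lowest array was at 16.07 with aluminum, 16.25 with lead, 16.32 with cobalt and 16.33 with tungsten. The tissue is bulk muscle, in which fewer cells of a type and less RNA per cell cannot be told apart.

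All 40 genes lay above the control median on every array. Their mean levels ran from 4.76 for Psma8, near the control level of 4.05 to 4.12, to 11.63 for Psmb7, a catalytic subunit. The family varied little. The median range of the 35 group means was 0.408 for the 40 genes, against 0.603 for all probe sets and 1.742 for the 3 inducible subunits. The median spread between arrays of a group was 0.148 for the family and 0.201 for all probe sets. Relative to that spread, the group means of the family varied about as much as those of all probe sets. The median ratio of the 2 spreads, between groups to within groups, was 0.682 for the family and 0.719 for all probe sets. The narrowest ranges belonged to Psmd1, a scaffold of the cap's base, at 0.246, and to Psmb7 at 0.258. Psmd10 (gankyrin), a chaperone of cap assembly, had the widest at 0.779, followed by the activator subunit Psme2 at 0.747 and the ATPase Psmc6 at 0.734.

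The genes did not move as a single unit. Over the 35 group means, the 780 pairs of members had a median correlation of 0.167, against 0.003 for all pairs of probe sets, and ran from -0.743 for Psmc2 and Psmd3 to 0.888 for Psma3 and Psmd6. Over single arrays with each group's mean removed, the median was 0.252, and the extremes were 0.924 for Psmb4 with Psmd4 and -0.771 for Psma3 with Psmd4. These correlations are descriptions: the points share arrays and normalization, and arrays of a group are not independent of each other in it.

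The first question was whether any metal raised or lowered the family relative to tantalum in the same month. It hardly did. Over 31 comparisons, 3 of 1240 tests of members passed (0.242%), against 0.443% of the tests over all probe sets, and all 3 passing tests were lower values of Psmd9. In unadjusted terms, 4.44% of the members' tests had a p below 0.05, against 7.73% over all probe sets. No catalytic subunit, alpha subunit, ATPase, lid subunit or activator passed with any metal in any month by limma in this model, which leaves out the replicate number. With the replicate number added, more member tests passed by month and for metal means, some of them of members other than Psmd9. The closing section gives these counts, without the share of all probe sets called in that fit. The median difference of the 40 genes lay between -0.125 (nickel, 3 months) and 0.0204 (cobalt, 1 month), against -0.0516 to 0.0107 for all probe sets. In the same 2 comparisons, 2 and 26 of the 40 differences were above 0, the fewest and the most of the 31. Whether the family shifted as a whole was not tested.

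The arrays limit how small a change could be seen. The standard error of a member's difference in a single month had a median of 0.124, and the 95% interval of 1135 of the 1240 differences lay inside -0.5 to 0.5. With a metal's months averaged, the median standard error was 0.0626, and all 320 intervals lay inside those bounds, 281 of them inside -0.25 to 0.25. Of these 320 tests of metal means, 1 passed (0.312%), Psmd9 in nickel, against 0.545% over all probe sets. The members' median was below 0 with every metal, from -0.0845 with lead, where 10 of the 40 had an unadjusted p below 0.05 (18.7% of all probe sets did), to -0.0305 with cobalt. The number of the 40 above 0 ran from 2 with nickel to 11 with cobalt. The medians of all probe sets ran from -0.00798 to 0.00157, and these 8 means share the tantalum arrays.

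**Figure D1:**
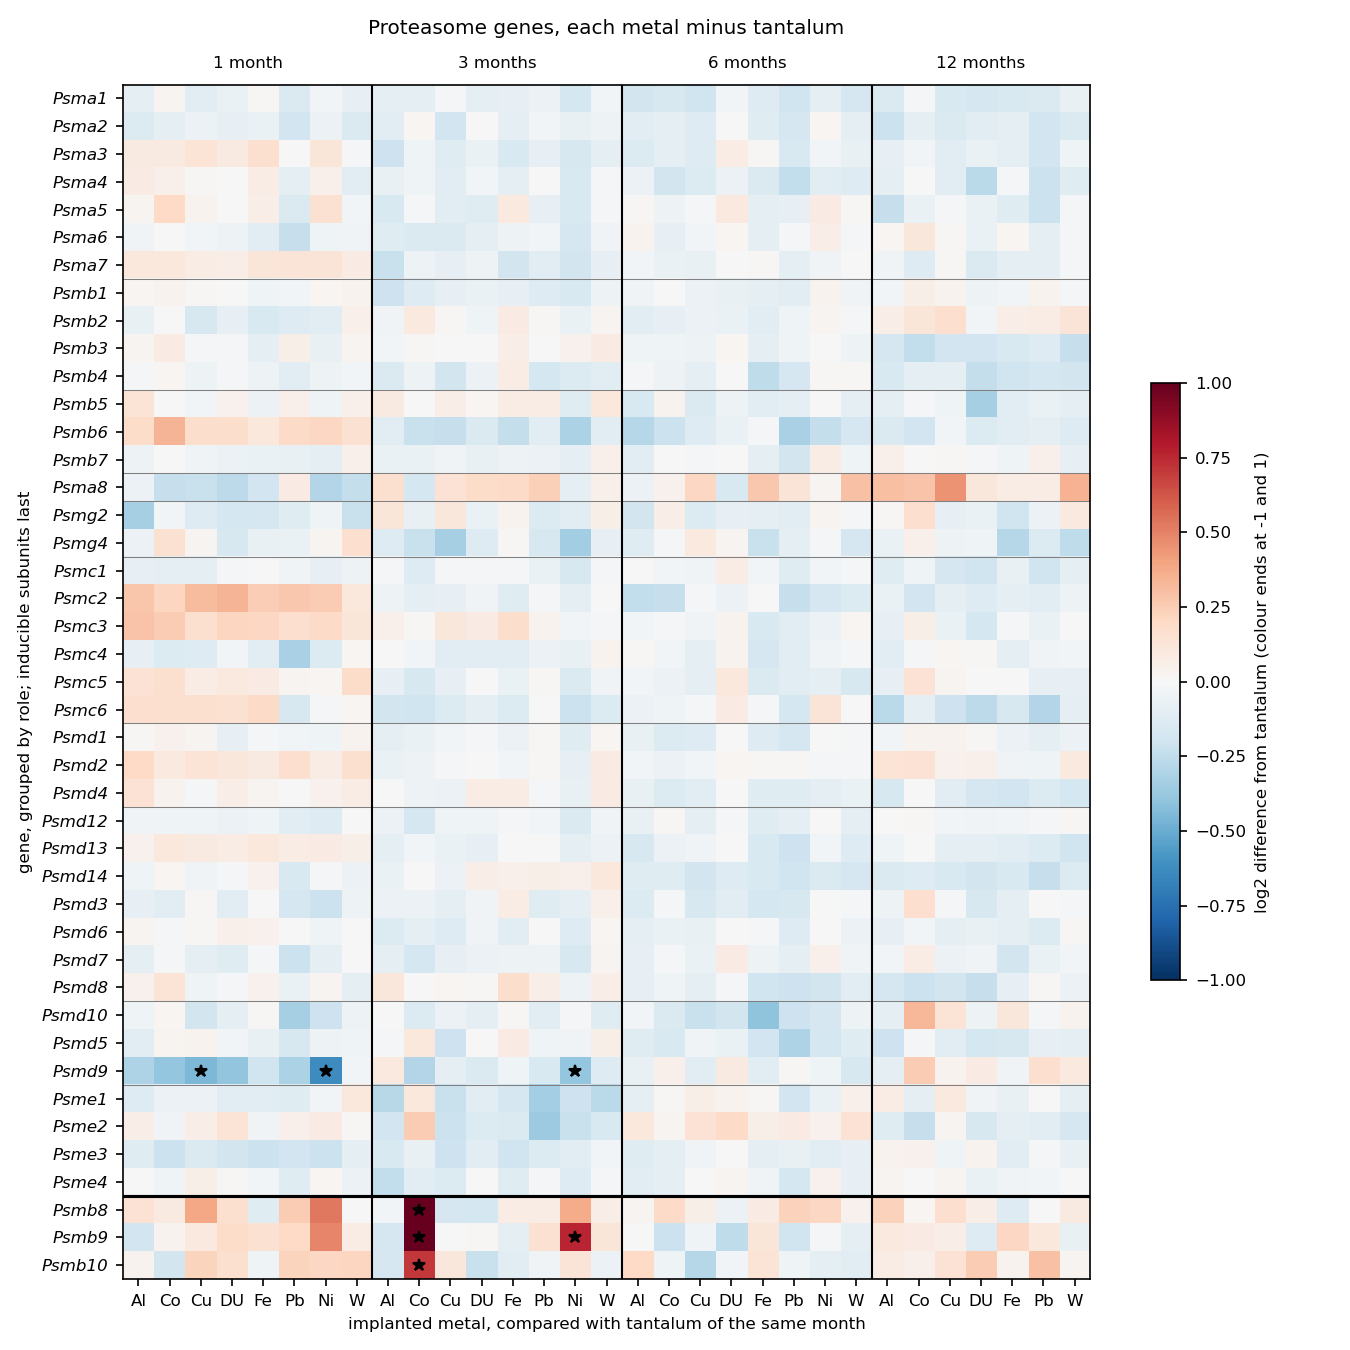
Log2 difference of each metal from tantalum of the same month (columns) for the 40 genes grouped by role and, under the thick line, the 3 inducible catalytic subunits (rows). Red is higher than tantalum, blue is lower, and stars mark adjusted p below 0.05 in limma. Psmd9 carries the 3 stars of the family, while the inducible subunits stand out with cobalt at 3 months.

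Psmd9 encodes a PDZ-domain chaperone that helps to assemble the ATPases into the cap's base and is released before the particle is finished. At 1 month its level in the 3 tantalum arrays was 7.68, 7.67 and 7.77. In the nickel arrays it was 7.03, 7.09 and 7.10. In the copper arrays it was 7.09, 7.27 and 7.41. Every nickel and every copper array lay below every tantalum array, as did 8.78% (nickel) and 6.94% (copper) of all probe sets. Psmd9 fell with nickel by 0.63 ± 0.11 (log2 difference ± standard error, limma adjusted p = 0.000129), where 0.392% of all probe sets were called lower. With copper it fell by 0.45 ± 0.11 (limma adjusted p = 0.038), where 0.0871% were called lower. The nickel call held without each of the 6 arrays in turn (adjusted p from 0.00155 to 0.00429). In a fit of the 6 arrays alone, which estimates the spread from those arrays, the nickel and copper calls at 1 month were both lost (limma adjusted p = 0.274 and 0.67). The copper call was lost without any of its 6 arrays (adjusted p from 0.0552 to 0.587).

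The other metals lay between nickel and tantalum at 1 month. Mean Psmd9 levels ran from 7.07 with nickel through copper (7.26), depleted uranium (7.31), cobalt (7.32), lead (7.39), aluminum (7.40), iron (7.50) and tungsten (7.68) to 7.70 with tantalum. Arrays of neighbours in this order overlapped, and those of nickel and tantalum, its ends, did not. The differences from tantalum with depleted uranium (-0.40, limma adjusted p = 0.105), cobalt (-0.39, adjusted p = 0.264) and lead (-0.32, adjusted p = 0.0821) missed the threshold. None of their arrays reached the tantalum arrays, nor did those of aluminum, which also missed it. Of all probe sets, 8.12% lay wholly below tantalum with depleted uranium, 5.89% with cobalt, 10.8% with lead and 7.71% with aluminum. All 8 differences share the same 3 tantalum arrays, which were the highest group. Set against the mean of the other metals instead of tantalum, nickel at 1 month was lower by a difference of -0.33 (limma adjusted p = 0.0168) and copper by -0.12 (adjusted p = 0.762).

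At 3 months Psmd9 was 7.78, 7.53 and 7.55 in the tantalum arrays and 7.20, 7.06 and 7.44 in the nickel arrays. The groups again did not overlap, where 11% of all probe sets lay wholly below tantalum. The difference was -0.39 ± 0.11 (limma adjusted p = 0.024), where 0.597% of probe sets were called lower. By limma this call was lost without nickel replicate 1 (adjusted p = 0.118), nickel replicate 2 (0.263) or tantalum replicate 1 (0.228), and in a fit of the 6 arrays alone (0.229). Against the other metals, the 3-month difference was -0.28 (limma adjusted p = 0.0279). By 6 months nickel (7.33, 7.63 and 7.32) overlapped tantalum (7.41, 7.54 and 7.45), with a difference of -0.04 ± 0.11. Averaged over its 3 months, Psmd9 in nickel was 0.35 ± 0.06 lower on the log2 scale (-0.35, limma adjusted p = 9.24e-05), where 0.985% of probe sets were called lower.

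The tantalum mean of Psmd9 was 7.70, 7.62, 7.47 and 7.40 at 1, 3, 6 and 12 months, and its 12-month difference from 1 month, -0.30 ± 0.11, missed the threshold (limma adjusted p = 0.0698). With cobalt the means were 7.32, 7.33, 7.52 and 7.66. The difference from tantalum was thus -0.39, -0.29, 0.05 and 0.26 at 1, 3, 6 and 12 months. A change of the difference between months was called for cobalt (limma moderated F, adjusted p = 0.00614), and the call was lost without tantalum replicate 1 (0.0518) or cobalt replicate 3 (0.0619). It was the only call among the members' 320 tests of a change (0.312%), against 0.699% over all probe sets and 4.18% in the cobalt test. For nickel the same test gave an adjusted p of 0.07. Across the 9 metals, with months 1, 3 and 6 averaged, Psmd9 was the only member called different (limma F, adjusted p = 0.00244), whereas 5.42% of all probe sets were. Those means were lowest with nickel (7.25) and highest with tantalum (7.60), and the other 7 metals lay between 7.39 and 7.50.

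**Figure D2:**
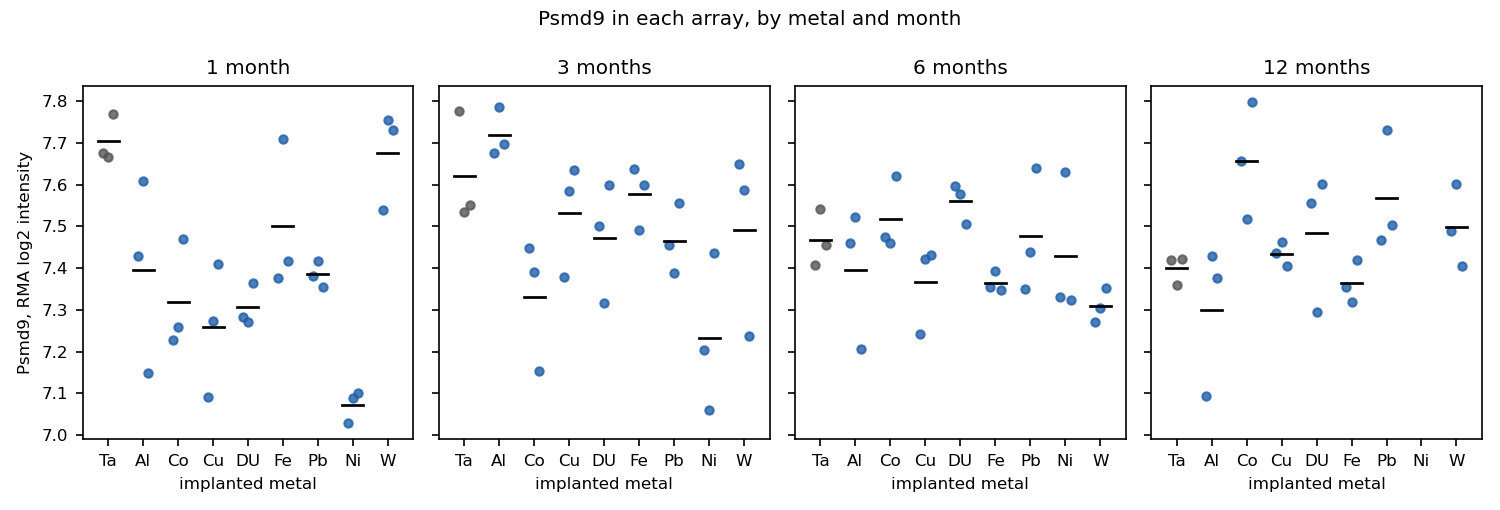
RMA log2 intensity of Psmd9 in each array (points; grey for tantalum, blue for the other metals) and the mean of 3 arrays (bars), in a panel for each month. The 3 nickel arrays at 1 month lie at 7.03 to 7.10, under the tantalum arrays at 7.67 to 7.77, and nickel at 12 months is absent.

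Markers of other cells moved with some of these differences. With nickel at 1 month, 2 of 12 leukocyte and macrophage markers were called higher, Cd53 by 1.13 and Fcer1g by 0.90, and the list's summed level was 11.2 to 11.89 against 10.63 to 11.5 with tantalum. With nickel at 3 months, 10 of the 12 were higher, at 11.86 to 12.26 against 10.72 to 11.37, as were 5 of 8 fibroblast and matrix markers, among them Lum (1.45) and Col3a1 (1.09). None of the 10 fibre markers was called in either comparison. With copper at 1 month, none of the 12 leukocyte markers and 1 of the 8 matrix markers (Lum) passed, at summed levels of 10.96 to 11.73 and 13.78 to 14.65 against 10.63 to 11.5 and 13.37 to 14.3 with tantalum. The median differences of the leukocyte and matrix lists at 1 month were 0.49 and 0.498 with copper and 0.667 and 0.431 with nickel. With cobalt at 3 months, where Psmd9 was 0.29 lower on average without passing (-0.29, limma adjusted p = 0.121), 11 of the 12 leukocyte markers were higher. The part of these cells in the Psmd9 values was not tested.

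The promoter of Psmd9 is shown because this gene carried the metal result. The sequence is from RefSeq (GRCr8, chr12:39018215-39018514, minus strand) and runs from 250 bases before the start site to 50 after it. Capitals mark 2 matches to the core of the antioxidant response element, TGANNNNGC, the element that Nfe2l1 and Nfe2l2 bind with small Maf proteins, and 1 match to the CCAAT box, all found by letters on either strand.
Psmd9: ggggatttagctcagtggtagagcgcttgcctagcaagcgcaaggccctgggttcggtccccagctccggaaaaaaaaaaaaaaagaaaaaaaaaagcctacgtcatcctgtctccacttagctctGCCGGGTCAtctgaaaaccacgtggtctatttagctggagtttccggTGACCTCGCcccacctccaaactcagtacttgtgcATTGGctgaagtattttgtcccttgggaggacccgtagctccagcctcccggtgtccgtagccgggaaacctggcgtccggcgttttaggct
These matches start 124, 77 and 42 bases before the start site, in that order, and do not overlap. A match is a description of the letters and not a bound site, and 40.5% of 33469 rat promoters of this length hold the first motif.

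Among the 31 comparisons by month, cobalt at 3 months was the only one that called all 3 inducible subunits. Of all probe sets, 5.46% were called in it, 4.87% higher and 0.588% lower. None of the 40 members passed in limma, and 2 had an unadjusted p below 0.05, as did 15.4% of all probe sets. Psmb9, which takes the place of Psmb6, was 6.20, 6.26 and 6.24 in the tantalum arrays and 8.01, 7.87 and 8.18 in the cobalt arrays. Psmb8, which takes the place of Psmb5, was 5.93, 6.08 and 6.12 with tantalum and 7.97, 7.07 and 7.78 with cobalt. Psmb10, which takes the place of Psmb7, was 6.85, 6.67 and 6.77 with tantalum and 7.53, 7.61 and 7.26 with cobalt. The groups were apart for all 3 genes. The log2 differences were 1.79 ± 0.15 for Psmb9 (limma adjusted p = 1.11e-16), 1.56 ± 0.18 for Psmb8 (1.59e-10) and 0.71 ± 0.18 for Psmb10 (0.00498).

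The constitutive partners of these subunits stayed close to tantalum in the same arrays. Psmb5 was 9.33, 9.43 and 9.41 with tantalum and 9.49, 9.35 and 9.32 with cobalt, overlapping values with a difference of -0.004 (95% interval -0.318 to 0.309). Psmb7 was 11.69, 11.68 and 11.59 with tantalum and 11.58, 11.56 and 11.62 with cobalt, again overlapping, with a difference of -0.07 (-0.306 to 0.173). Psmb6 was 10.73, 10.89 and 10.83 with tantalum and 10.62, 10.64 and 10.54 with cobalt. Its arrays were apart, as 15.1% of all probe sets were in that direction, and the difference of -0.22 (-0.469 to 0.0314) did not pass. These intervals exclude rises of the size seen for Psmb8 and Psmb9.

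Psme1 and Psme2 encode the PA28 activator, which interferon also induces, and the rule counts them as members. Psme2 was 9.14, 8.90 and 8.91 in the tantalum arrays at 3 months and 9.27, 9.33 and 9.12 in the cobalt arrays. Psme1 was 10.44, 10.12 and 10.22 with tantalum and 10.33, 10.39 and 10.38 with cobalt. The highest tantalum array overlapped the cobalt arrays for both genes, and the differences were 0.25 ± 0.13 for Psme2 (limma adjusted p = 0.358) and 0.10 ± 0.13 for Psme1 (adjusted p = 0.788). Over the 35 groups, cobalt at 3 months had the highest mean of both genes. The cobalt arrays at 3 months also held the leukocyte rise given above (summed level 12.65 to 13.03 against 10.72 to 11.37), 10 of 10 lymphocyte markers higher, and 6 of 7 interferon-induced genes higher. The share of these cells in the differences was not tested.

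**Figure D3:**
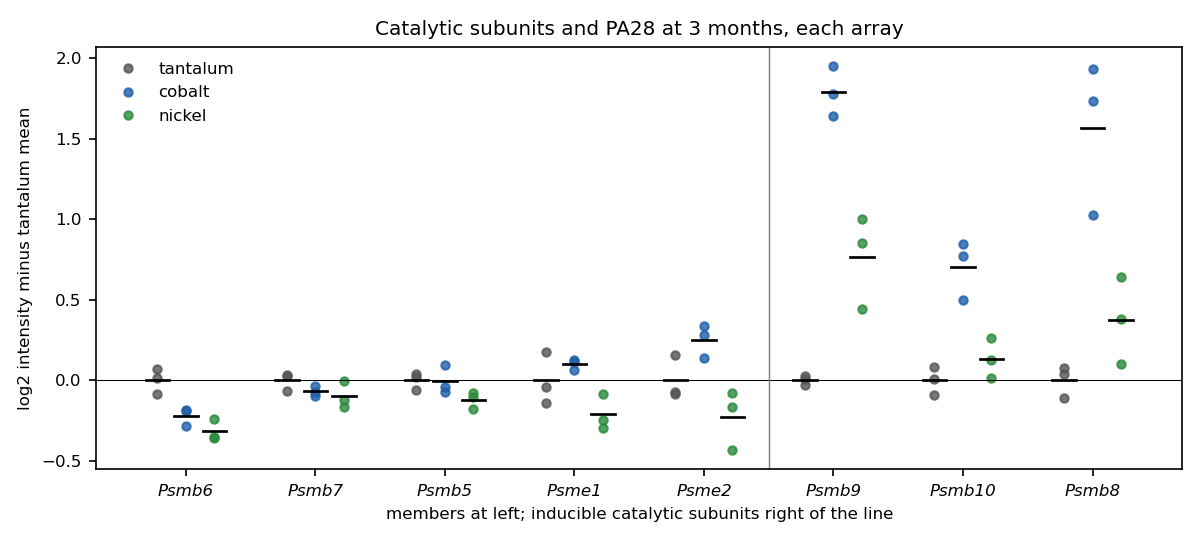
Log2 intensity at 3 months minus the tantalum mean of the same gene, for each array (points; grey tantalum, blue cobalt, green nickel) with group means (bars). The 5 members at left stay within 0.5 of tantalum, and Psmb9, Psmb10 and Psmb8 at right reach means of 1.79, 0.71 and 1.56 with cobalt.

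With nickel at 3 months Psmb9 was the only inducible subunit called. It was 7.08, 7.23 and 6.67 in nickel arrays, all above tantalum, with a difference of 0.77 ± 0.15 (limma adjusted p = 0.00022, where 3.42% of probe sets were called), while Psmb8 (0.37) and Psmb10 (0.13) did not pass. Of the 40 members, 11 had all 3 nickel arrays below all 3 tantalum arrays, a larger share than the 11% of all probe sets. None lay wholly above, where 9.75% of all probe sets did. Of these 11 genes, Psmd9 alone was called; the others were the alpha subunits Psma3, Psma5 and Psma7, the catalytic Psmb5 and Psmb6, the ATPase Psmc2, the lid genes Psmd6, Psmd12 and Psmd13 and the chaperone Psmg4. At 3 months the number wholly below tantalum was 13 of 40 with copper (9.94% of all probe sets), 11 with aluminum (9.45%), 9 with cobalt (15.1%) and 8 with iron (7.62%). It was 6 with lead (6.77%), 3 with tungsten (4.92%) and 2 with depleted uranium (5.75%). As a share of the 40, it was above that of all probe sets with every metal except depleted uranium. These comparisons share the 3 tantalum arrays of that month and are no independent evidence of each other.

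Of the remaining lists of the pathway, only the partners of the particle had calls against tantalum in a single month. Of 12 listed partners of the particle without such symbols, 6 were measured. Adrm1, a ubiquitin receptor of the cap, was lower with cobalt at 3 months (-0.36 ± 0.11, limma adjusted p = 0.0239) and with nickel at 3 months (-0.50 ± 0.11, adjusted p = 0.00107). Of all probe sets, 0.588% were called lower with cobalt at 3 months and 0.597% with nickel at 3 months. Psmf1 (PI31), a regulator that binds the core, was lower with nickel at 3 months (-0.43 ± 0.11, adjusted p = 0.0141) and with lead at 1 month (-0.44, adjusted p = 0.0208) and 3 months (-0.57, adjusted p = 0.0327), where 1.73% and 0.0174% of probe sets were called lower. Of 7 listed regulators of proteasome gene transcription 5 were measured, among them Nfe2l2 and Ngly1, and no call was made against tantalum in any month. None was made either for the 9 measured genes of ubiquitin supply and delivery or for the 11 measured ubiquitin ligases in a single month. The nickel mean over months was lower for the ligase Ube4b (-0.21, limma adjusted p = 0.0329).

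More members were called between months than between metals, in comparisons that average 24 arrays at each month rather than 3. The month tests treat these arrays as independent. Same-numbered arrays deviated together in 8 of 8 comparisons with tantalum at 6 months and 5 of 7 at 12 months. The standard errors and p-values of the 6- and 12-month differences over the 8 metals may therefore be too small. Over the 8 metals measured in all 4 months, tantalum included and nickel left out, 27 of 40 genes differed among months (limma F over all probe sets), which is 67.5%, against 60.3% of all probe sets. At 3 months against 1, 2 members were higher and 4 lower, where 9.81% and 10.3% of all probe sets were. At 6 months 14 were higher and 7 lower, where 17.2% and 19.6% were. At 12 months 15 were higher and 8 lower, where 23.4% and 20.7% were. As shares of the 40, these were 35% higher and 17.5% lower at 6 months and 37.5% and 20% at 12 months. Psmc4, an ATPase, was higher and Psma4 lower at 6 months alone. The median difference at 12 months was 0.0334 for the 40 genes and 0.0182 for all probe sets.

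The 3 largest mean rises at 12 months among the 40 genes were those of ATPases of the cap's base. Of 6, Psmc1, Psmc2, Psmc5 and Psmc6 were higher at 12 months and Psmc3 and Psmc4 were not called. Psmc6 ranged from 8.94 to 9.74 with a median of 9.50 over the 24 arrays of 1 month, and from 9.49 to 10.21 with a median of 9.82 at 12 months. The months overlapped, and the mean rose by 0.32 ± 0.04 (limma adjusted p = 2.62e-10), upward in 8 of 8 metals. Psmc1 ranged from 9.76 to 10.12 (median 10.04) at 1 month and from 10.06 to 10.56 (median 10.29) at 12 months, with little overlap. It rose by 0.30 ± 0.04 (limma adjusted p = 4.43e-10), again in 8 of 8 metals, and had already risen by 0.34 at 6 months. Psmc2 followed another course. Its median went from 11.06 at 1 month down to 10.85 at 3 months, then up to 11.12 and 11.30 at 6 and 12 months. The 3-month value was lower by a difference of -0.22 ± 0.05 (limma adjusted p = 0.000607, 7 of 8 metals), and the exception was tantalum (0.04). The 12-month value was higher by 0.27 ± 0.05 (adjusted p = 4.05e-06, 8 of 8 metals).

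**Figure D4:**
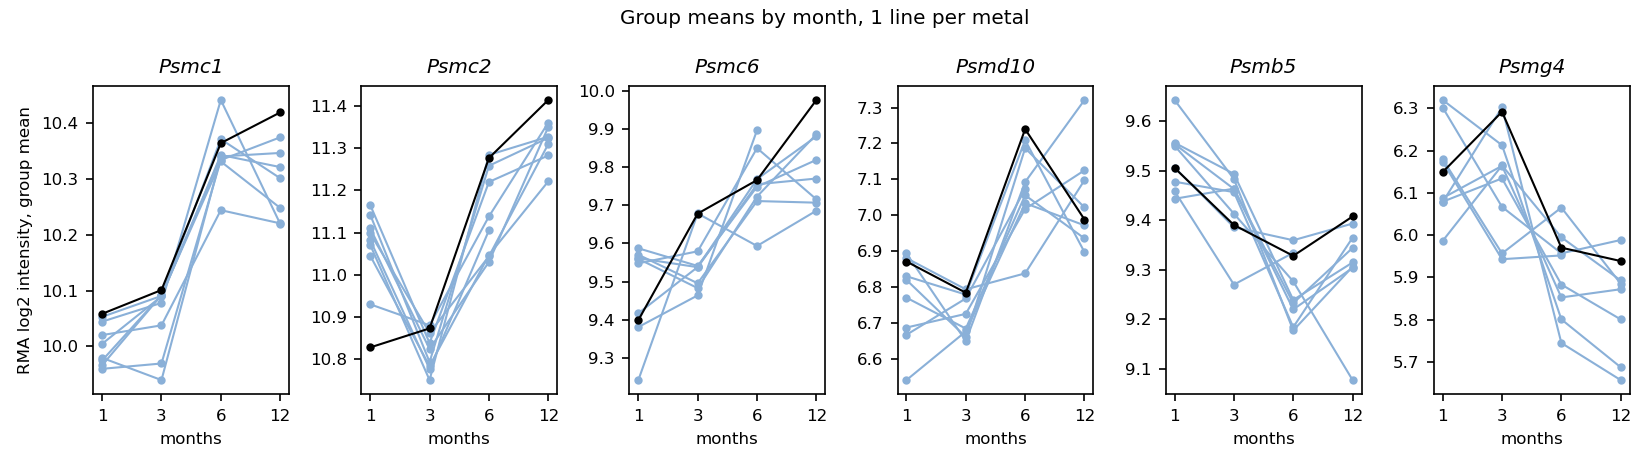
Group means of 3 arrays by month (log2 intensity; black tantalum, blue the other metals, nickel to 6 months) for 3 ATPases, the cap chaperone Psmd10, the catalytic subunit Psmb5 and the core chaperone Psmg4, each on its own axis. Psmc1, Psmc6 and Psmd10 are higher at 12 than at 1 month, Psmb5 and Psmg4 are lower, and Psmc2 dips at 3 months outside tantalum.

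Other parts of the particle rose with them. In the alpha ring, which gates the core, 5 of 7 genes were higher at 12 months: Psma6 (0.21), Psma3 (0.19), Psma2 (0.19), Psma5 (0.14) and Psma1 (0.10). In the lid, 4 of 7 were higher: the deubiquitinase Psmd14 (0.24), Psmd7 (0.14), Psmd6 (0.14) and Psmd13 (0.11). Psmd12 was not called. Psmd10 rose by 0.26 ± 0.06 (limma adjusted p = 8.22e-05), upward in 8 of 8 metals, whereas its fellow cap chaperones Psmd5 and Psmd9 were not called. Psme4, which encodes the PA200 activator, rose by 0.23 ± 0.04 (limma adjusted p = 8.06e-06) in 8 of 8 metals. In the base, the scaffolds Psmd1 and Psmd2 and the ubiquitin receptor Psmd4 were not called at 3, 6 or 12 months.

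A smaller set fell, 8 of the 40 at 12 months (20%), which is near the 20.7% of all probe sets called lower. Psmg4, a chaperone of core assembly, ranged from 5.81 to 6.51 (median 6.10) at 1 month and from 5.43 to 6.20 (median 5.84) at 12 months. It was lower in 8 of 8 metals, with a mean difference of -0.31 ± 0.06 (limma adjusted p = 5.11e-06), while Psmg2, another chaperone of the core, was not called. Psmb5, which holds the chymotrypsin-like site, ranged from 9.29 to 9.72 (median 9.51) at 1 month and from 8.74 to 9.65 (median 9.30) at 12 months. It fell by 0.22 ± 0.06 (limma adjusted p = 0.000967) in 8 of 8 metals, and the other catalytic genes Psmb6 (0.05) and Psmb7 (-0.03) were not called. Psme2 (-0.21) and Psme1 (-0.16) were lower at 12 months, opposite to Psme4, and Psme3, the nuclear PA28 form, was not called. The remaining lower genes were the lid genes Psmd8 (-0.16) and Psmd3 (-0.13), the alpha subunit Psma7 (-0.15) and the beta subunit Psmb3 (-0.11). Psmd8 lost its call after a second quantile normalization (limma adjusted p = 0.0818), Psma7 without cobalt, iron or lead replicate 1 (0.0622, 0.0534 and 0.0551), and Psmd3 without depleted uranium replicate 1 (0.0526). Psmb1, Psmb2, Psmb4, Psma4 and the germ-cell subunit Psma8 did not pass at 12 months.

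**Figure D5:**
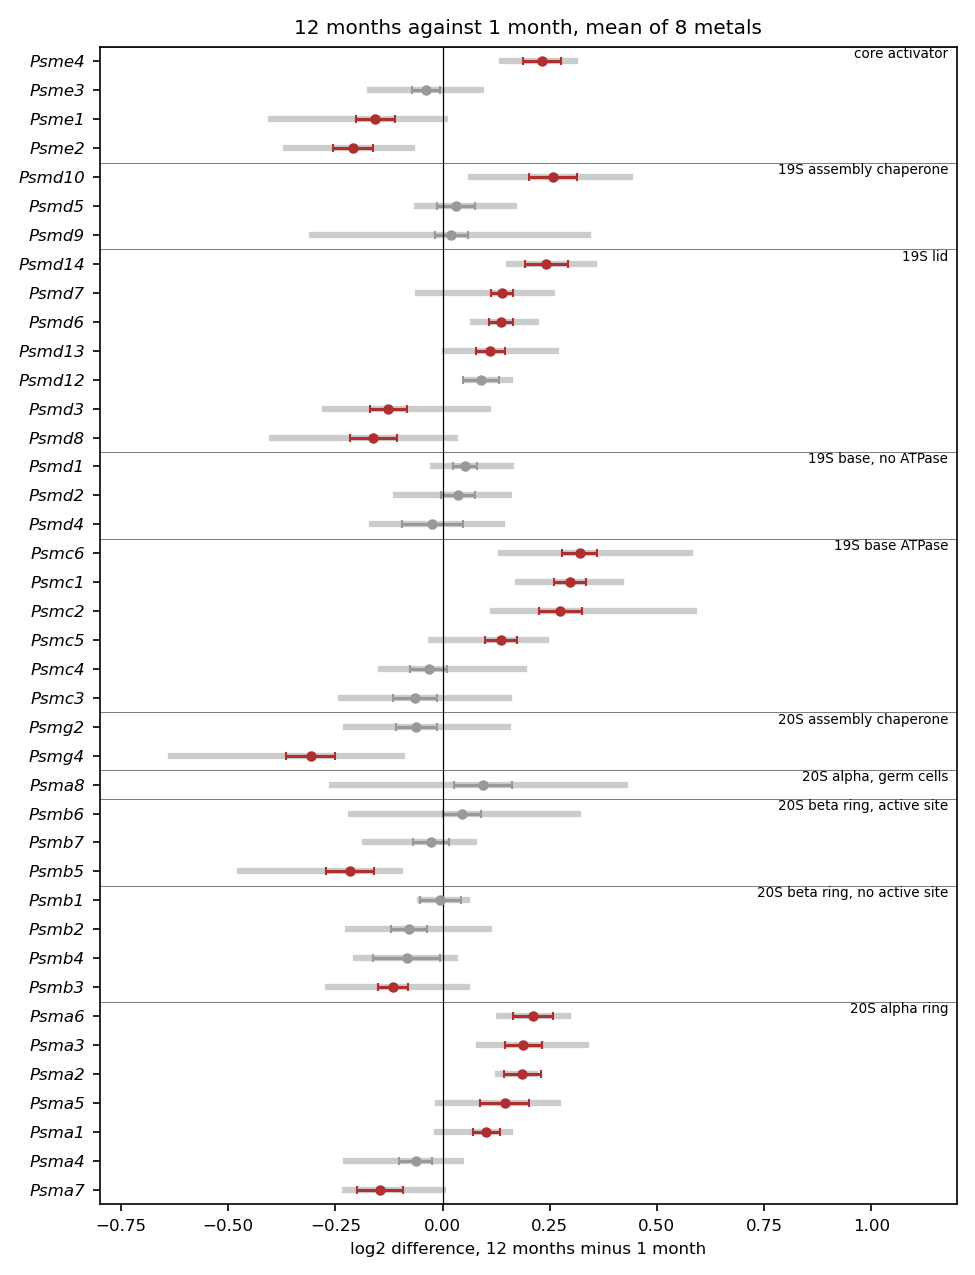
Log2 difference of 12 months from 1 month for the 40 genes by role: mean of 8 metals with its standard error (points; red for adjusted p below 0.05 in limma, grey otherwise) and the range over the 8 metals (thick grey lines). The ATPases Psmc6, Psmc1 and Psmc2 lie at 0.32, 0.30 and 0.27, and Psmg4 and Psmb5 at -0.31 and -0.22.

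In tantalum alone, 3 of the 6 ATPases were called higher at 12 months, and Psmc3 (0.16), Psmc4 (-0.10) and Psmc5 (0.24) were not. Psmc6 was 9.49, 9.44 and 9.26 in its arrays of 1 month and ran from 9.72 to 10.21 with a mean of 9.98 at 12 months. The months did not overlap, a difference of 0.58 ± 0.11 (limma adjusted p = 0.000289). Psmc2 was 10.86, 10.91 and 10.72 at 1 month and 11.24, 11.37 and 11.63 at 12 months, also apart, a difference of 0.59 ± 0.14 (adjusted p = 0.00374). Psmc1 was 10.02, 10.09 and 10.07 at 1 month and 10.31, 10.42 and 10.53 at 12 months, a difference of 0.36 ± 0.11 (adjusted p = 0.0218). These were the 3 members called at 12 months, all higher, where 3.46% of probe sets were. Of the 8 metals, tantalum had the largest 12-month rise of Psmc6 and Psmc2 (smallest 0.14 and 0.12) but not of Psmc1 (largest 0.42). Tantalum is also part of the 8-metal means given above. At 6 months Psmc6 (0.37, limma adjusted p = 0.0419) and Psmc2 (0.45, adjusted p = 0.0471) were called, where 2.39% were higher, and at 3 months no member was called (1 of 40 had an unadjusted p below 0.05, as did 10.1% of all probe sets), where 0.222% of probe sets were called. The Psmc6 call at 12 months held without each tantalum replicate; Psmc2 at 12 months lost it without tantalum replicate 3 (adjusted p = 0.171), and Psmc1 without any (0.0794 to 0.187). Both 6-month calls were lost without any of the 3 replicates (limma adjusted p from 0.0701 to 0.273 for Psmc6 and from 0.0599 to 0.536 for Psmc2). At 1 month tantalum was the lowest of the 9 groups for Psmc2 (10.83 against 10.93 to 11.17), so that all 8 differences of a metal from it were positive, from 0.10 to 0.34, and none passed (lowest limma adjusted p = 0.27).

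The other lists of the pathway are read against the 44.1% of all probe sets that were called in either direction at 12 months against 1. Of 11 measured ubiquitin ligases of muscle, 6 were higher and 1 lower at 12 months. They included the atrophy ligases Trim63 (MuRF1; 0.42 ± 0.04, limma adjusted p = 7.56e-17) and Fbxo32 (atrogin-1; 0.32 ± 0.06, adjusted p = 2.84e-05) and Fbxo30 (0.65 ± 0.05, adjusted p = 2.05e-17). Of the 6 measured partners, 4 were higher, led by Akirin2, which carries proteasomes into the nucleus (0.28, adjusted p = 3.39e-10), and the deubiquitinase Usp14 (0.28, adjusted p = 3.1e-08). Psmf1 was 0.12 higher over the 8 metals and lower in tantalum alone (-0.40, limma adjusted p = 0.0148). Of 5 regulators, Ngly1 (0.15) and Maff (0.15) were higher, a share near that of all probe sets. Of 9 supply and delivery genes, Uba6 was higher (0.39) and Ubqln4 lower (-0.40), a share below it. The inducible Psmb9 (-0.17) and Psmb10 (-0.25) were lower.

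Markers of several cell types differed between these months as well. At 12 months against 1, all 8 fibroblast and matrix markers were lower, with a median of -1.39, led by Col1a1 (-2.39). So were 10 of 12 leukocyte markers (median -0.342), all 6 endothelial markers (median -0.378) and 4 of 5 proliferation markers. Of 10 fibre markers, Myh1 was higher (0.08) and Myh7 (-0.37) and Acta1 (-0.09) were lower. At 6 months against 1, 5 of the 10 fibre markers were called lower and 0 higher, with a median difference of -0.11. The part of these cell types in the members' month differences was not tested.

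Of the 40 genes, 36 matched an entry of the RefSeq promoter table; Psma7, Psmd6, Psmd12 and Psmd14 did not. Promoters are shown for 3 ATPase genes that rose and the catalytic gene that fell, read 5′ to 3′ from 250 bases before the start site to 50 after (GRCr8). They lie at chr6:125122247-125122546 (plus strand) for Psmc1, chr4:14162341-14162640 (minus) for Psmc2, chr15:21022064-21022363 (plus) for Psmc6 and chr15:32047330-32047629 (minus) for Psmb5. Capitals mark matches to 5 motifs searched on both strands: the antioxidant response element core (TGANNNNGC), the CCAAT box (CCAAT), the ETS core (CCGGAAG), the interferon-stimulated response element core (GAAA, any 2 bases, GAAA) and the gamma-activated site (TTCNNNGAA).
Psmc1: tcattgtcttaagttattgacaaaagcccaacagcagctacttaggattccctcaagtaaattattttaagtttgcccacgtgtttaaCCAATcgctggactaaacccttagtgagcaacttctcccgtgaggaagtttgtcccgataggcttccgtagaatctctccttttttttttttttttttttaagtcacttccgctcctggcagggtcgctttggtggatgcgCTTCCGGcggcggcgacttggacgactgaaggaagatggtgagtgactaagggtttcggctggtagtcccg
Psmc2: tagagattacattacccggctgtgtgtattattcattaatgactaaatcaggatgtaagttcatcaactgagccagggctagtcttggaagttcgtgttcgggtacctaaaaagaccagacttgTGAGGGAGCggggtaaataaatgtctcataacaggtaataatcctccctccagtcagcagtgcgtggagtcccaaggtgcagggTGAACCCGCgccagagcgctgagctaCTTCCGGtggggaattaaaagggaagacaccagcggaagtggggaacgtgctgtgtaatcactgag
Psmc6: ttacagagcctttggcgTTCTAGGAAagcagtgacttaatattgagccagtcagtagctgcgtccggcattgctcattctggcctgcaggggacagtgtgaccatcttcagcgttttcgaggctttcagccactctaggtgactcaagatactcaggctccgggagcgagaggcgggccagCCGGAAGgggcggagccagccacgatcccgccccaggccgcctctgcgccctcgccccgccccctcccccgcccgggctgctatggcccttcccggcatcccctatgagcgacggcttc
Psmb5: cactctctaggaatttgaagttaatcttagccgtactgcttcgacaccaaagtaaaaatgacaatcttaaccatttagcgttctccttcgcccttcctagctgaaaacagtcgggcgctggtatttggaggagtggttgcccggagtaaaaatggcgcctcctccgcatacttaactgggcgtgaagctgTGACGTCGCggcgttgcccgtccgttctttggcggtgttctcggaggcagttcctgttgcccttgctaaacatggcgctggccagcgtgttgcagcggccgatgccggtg
The 3 ATPase promoters each hold an ETS core, starting 21 (Psmc1), 16 (Psmc2) and 69 (Psmc6) bases before the start site, and Psmb5 holds none. Psmc2 and Psmb5 hold antioxidant response element cores, Psmc1 a CCAAT box and Psmc6 a gamma-activated site. No matches overlap within these 4 windows. Over the 36 member promoters the ETS core was present in 12 (33.3%, against 8.75% of all promoters), the antioxidant response element core in 20 (55.6% against 40.5%) and the CCAAT box in 17 (47.2% against 37.5%). The interferon-stimulated core was present in 5 (13.9% against 3.92%), Psme2 among them, and the gamma-activated site in 3 (8.33% against 8.87%). Member promoters had a median GC content of 56.5%, against 51.7% for all, and the shares are not matched for that difference.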

How the data were processed

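The deposited table holds log2 intensities of Clariom S Rat arrays, which the authors made with RMA in oligo (R 4.0.1), per the submitters' processing notes. Whether all arrays were normalized in a single run, and the genome build of the probes, are not given in the sources used here. After leaving out 23 control probe sets, 22954 were tested; 14855 carry a single symbol, updated through RefSeq gene IDs. In limma 3.58.1 (R 4.3.3), 1 mean per group was fitted over all arrays (lmFit, eBayes; 70 residual and 7.25 prior degrees of freedom), with Benjamini-Hochberg adjustment over all probe sets in each of 55 comparisons and a threshold of 0.05. The procedure was tested on simulated data. With changes set in the nickel arrays of 1 month, it called 42 of 100 changes of -0.5 and 94 of 100 changes of -1, beside 13 false calls. Array number limits the precision. Same-numbered arrays deviated together in 8 of 8 comparisons with tantalum at 6 months and 5 of 7 at 12 months, and in none at 1 and 3 months, taken from the correlation of deviations from group means; the replicate number was not in the main model. Members were taken by symbol; array values are given for members called against tantalum, and up to 8 called members with the largest differences each way for months; the cobalt values of Psmb5, Psmb6, Psmb7, Psme1 and Psme2 were chosen after values were seen. The members and lists were chosen with earlier results of these data known. Promoters and start sites are RefSeq GRCr8.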

Additional observations from a re-analysis of the deposited data

Results flagged for a closer look

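The difference of Psmd9, a chaperone of 19S base assembly, between cobalt and tantalum changed between months (limma moderated F over all probe sets, adjusted p = 0.00614). It was -0.39 at 1 month, -0.29 at 3 months, 0.05 at 6 months and 0.26 at 12 months on the log2 scale, and it stood out because the test of the change itself passed. Cobalt arrays lay below tantalum at 1 month and above it at 12 months, with no overlap at either time. Of all probe sets, 5.89% lay wholly below at 1 month and 5.36% wholly above at 12 months. Lead arrays also lay wholly above tantalum at 12 months (6.22% of all probe sets). The call was lost without tantalum replicate 1 (adjusted p = 0.0518) or cobalt replicate 3 (adjusted p = 0.0619). Uncalled, Psmd9 also had the members' smallest unadjusted p of the moderated F with nickel (0.00105), depleted uranium (0.0053), lead (0.0148) and copper (0.0167). With aluminum, iron and tungsten another member had it. These tests share the tantalum arrays, in which Psmd9 differed by -0.30 between 12 months and 1 month. Month, age and cohort cannot be told apart here.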

How the results depend on the processing

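Over 17 counts of calls and 398 values under other settings, 352 stayed within 1.5 times the main count, 46 moved further and no named difference changed sign. Of 1225 values of named members and of medians under other settings, 89 no longer passed the threshold. With the replicate number as a block, which the pairing check finds only against tantalum at 6 and for 5 of 7 metals at 12 months, and not between tantalum arrays of different months, calls went from 3 to 11 by month, from 1 to 7 for metal means, from 5 to 18 for tantalum months (8 at 6 and 10 at 12 months), from 1 to 9 for changes between months (3 for cobalt), from 1 to 2 among metals and from 6 to 13 for 3 months against 1; copper and nickel at 1 month, nickel at 3 months and the nickel mean had 2 each. The 6-month comparisons with tantalum had no member call with or without it. The block takes the shared deviation of same-numbered arrays within a month out of the spread. Its counts for differences between months therefore do not correct p-values that may be too small. Without the dimmest 30% of probe sets, tantalum months gave 8 calls (5 at 12 months). A second quantile normalization gave 2 for changes between months. Array weights gave 5 by month and 4 for tantalum at 6 months. Arrays of the same month alone gave 0 for copper at 1 month; the 6 arrays compared alone gave 0 by month, copper at 1 month and nickel at 1 and 3 months included; adjustment over all 31 comparisons together gave 0 for nickel at 3 months. The other metals as reference gave 6 by month and 0 for copper at 1 month. The shares of all probe sets called under these other settings are not given here. The member counts can therefore not be set against them. The causes were not tested, beyond the fewer arrays in the smaller fits. Leaving out each replicate gave 1 to 3 calls by month, 0 to 0 for copper at 1 month, 0 to 1 for nickel at 3 months, 44 to 50 for months, 2 to 6 for tantalum months (0 to 0 at 6, 2 to 3 at 12 months), 4 to 7 for 3 months against 1, 0 to 2 for changes between months (0 to 1 for cobalt) and 25 to 29 among months. Other scaling moved the median of all probe sets by at most 0.0414. Psma8 lies near the control level.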
